A study of Mus musculus with 8 samples.

Results

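Transcript levels of 39 genes of the lysosome and of autophagy were followed in 4T1 cells, a mouse mammary carcinoma cell line, after depletion of the kinase ERK5 or of MEK5, the kinase that phosphorylates and activates it. The 39 genes were chosen by name for their function, out of 24454 genes measured. The rule that lists them uses no measured value, but the choice was made with earlier results of these data known. All 39 were found and all 39 passed the filter on low values. The 3 groups were shERK5 (3 libraries, a lentiviral hairpin numbered 1 against ERK5), shMEK5 (2 libraries, a hairpin numbered 2 against MEK5) and shCTRL (3 libraries, a non-targeting hairpin vector). Cells of every group, shCTRL included, were infected with lentivirus in the presence of polybrene and selected with puromycin. Each kinase was targeted by 1 hairpin, so an effect of the hairpin's sequence and an effect of losing its target cannot be told apart. The labels do not say whether the replicates of a line were separate cultures, so the p-values cover only the spread among these libraries, some or all of which may be technical. Levels are given in CPM, reads of the gene for every 1000000 that the library had on genes.

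The lysosome is an acidic, membrane-bound compartment in which hydrolases break down proteins, glycans and lipids. Its hydrolases are made in the secretory pathway and sorted by mannose 6-phosphate receptors, its lumen is acidified by a proton pump, the V-ATPase, and its membrane carries heavily glycosylated proteins and transporters. In autophagy a double membrane grows around cytoplasm or organelles, lipid-linked proteins of the ATG8 family decorate it, and the closed autophagosome fuses with the lysosome. The transcription factors TFEB and TFE3 are known to switch on many genes of both systems through a promoter motif whose core is an E-box, and tumour cells, including carcinoma cells, use these systems to recycle nutrients.

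Both hairpins lowered their targets. Mapk7, the gene of ERK5, was at 6.59, 6.33 and 6.66 CPM in shERK5, at 20.4 and 18.7 CPM in shMEK5 and at 25.6, 28.6 and 26.1 CPM in shCTRL. Against shCTRL it changed on the log2 scale by -1.88 ± 0.07 (SE; limma, adjusted p = 4.56e-08) in shERK5 and -0.44 ± 0.08 (adjusted p = 0.000923) in shMEK5. Map2k5, the gene of MEK5, was at 36.1, 36.8 and 37.1 CPM in shERK5, at 14.1 and 14.4 CPM in shMEK5 and at 35.2, 37.0 and 36.8 CPM in shCTRL. This was a log2 fold change of -1.29 ± 0.06 (limma adjusted p = 1.84e-07) in shMEK5 against shCTRL. Libraries held between 41397315 and 53714288 reads, so that 1 read was worth 0.0186 to 0.0242 CPM. A count of 0 would allow up to 3 reads, or 0.0559 to 0.0725 CPM, counting error only. All 5 epithelial markers were expressed, with summed levels of 1350 to 1401 CPM in shERK5, 1198 to 1261 CPM in shMEK5 and 1630 to 1817 CPM in shCTRL. That sum is mostly Krt18 and Krt8, and the other 3 markers were highest in shERK5, with Cdh1 at a mean of 112 CPM in shERK5, 55.6 CPM in shMEK5 and 37.4 CPM in shCTRL. Epcam averaged 28.4, 14.2 and 13.2 CPM and Krt19 76.7, 49.2 and 37.2 CPM in shERK5, shMEK5 and shCTRL. Macrophages are rich in lysosomal transcripts, and of 8 macrophage markers 1, Cd14, reached 1 CPM. The list summed to 11.2 to 14.4 CPM in shERK5, 10.9 to 13.4 CPM in shMEK5 and 7.24 to 7.93 CPM in shCTRL, with the macrophage marker Adgre1 at 0 reads in all 8 libraries. Of 7 fibroblast markers 1, Pdgfra, reached 1 CPM, Dcn, Lum and Thy1 were at 0 in all libraries, and the 4 endothelial and 3 T cell markers summed to at most 0.362 and 0.0188 CPM per library. The part of these marker differences in the results was not tested.

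Most of the 39 genes differed between shERK5 and shMEK5 cells. Against shCTRL, 17 of the 39 genes were higher and 11 lower in shERK5, while 3 were higher and 19 lower in shMEK5, called at a limma adjusted p under 0.05 over all 11623 genes tested. Of all tested genes 63.3% were called in shERK5 and 48.7% in shMEK5, with shares of 32.0% higher and 31.3% lower in shERK5 and 23.1% higher and 25.6% lower in shMEK5, beside member shares of 43.6% higher and 28.2% lower in shERK5 and 7.69% higher and 48.7% lower in shMEK5. The median log2 fold change of the 39 genes was 0.07 in shERK5 and -0.21 in shMEK5, beside 0.00 and -0.02 over all tested genes. Both of these comparisons use the same 3 shCTRL libraries. Compared directly, shERK5 had 26 of the 39 genes higher and 4 lower than shMEK5 (66.7% and 10.3% of members). Of all tested genes 22.0% were higher and 17.4% lower (39.4% called in all). The median log2 difference was 0.30, beside 0.02 over all tested genes. The count of 26 fell in some fits that left out a library, and ranged from 24 to 26 over the other alternatives. The 4 lower genes were Psap, Map1lc3a, Ulk1 and Wipi1, and this count was 1 without shMEK5 replicate 1, 1 without shMEK5 replicate 2 and 2 without shERK5 replicate 3. Over all tested genes 4581 were called in this direct comparison, and 2864 without shMEK5 replicate 1. In bulk RNA such as this, fewer cells expressing a gene and less RNA of it per cell cannot be told apart.

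**Figure D1:**
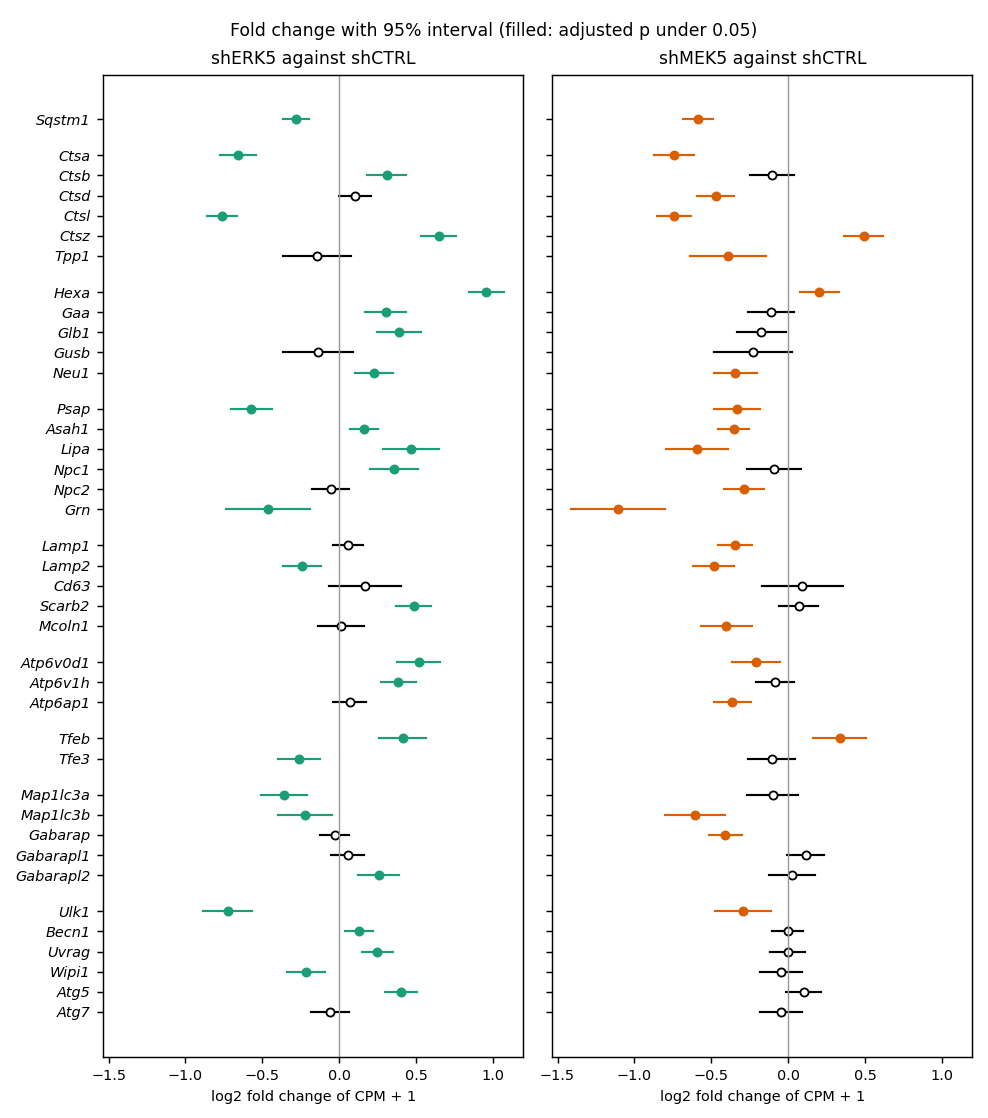
Log2 fold change of CPM + 1 (x axis) of the 39 genes, grouped by function (y axis), in shERK5 against shCTRL (left) and shMEK5 against shCTRL (right). Points are limma estimates with 95% intervals, filled where the adjusted p is under 0.05; in shERK5 11 filled points lie left of 0 and 17 right of it, in shMEK5 19 lie left and 3 right.

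Changes were mostly smaller than a doubling. A called change of at least 2-fold was seen for Grn in shMEK5 against shCTRL and for Lipa in shERK5 against shMEK5, and for none of the 39 genes in shERK5 against shCTRL. In 17 of the 39 genes both shMEK5 libraries lay below all 6 other libraries, a pattern shown by 15.5% of all tested genes, and in none did both lie above (11.7% of all tested genes). In 17 genes all 3 shERK5 libraries lay above the other 5 (20.7% of all tested genes), and in 5 they lay below (16.4%). The shCTRL libraries were the 3 highest in 8 genes (23.3% of all tested genes) and the 3 lowest in 5 (22.5%). Summed over the 39 genes, the level was 7922 to 8379 CPM in shERK5, 6633 to 6891 CPM in shMEK5 and 8556 to 8930 CPM in shCTRL, with no overlap between groups. Without Sqstm1 and Ctsl, a choice made after their values were seen, the shERK5 sums were the highest: the sums were 5215 to 5607 CPM in shERK5, 4258 to 4436 CPM in shMEK5 and 4865 to 5107 CPM in shCTRL. The group mean was highest in shERK5 for 22 genes, in shMEK5 for 1 and in shCTRL for 16. It was lowest in shERK5 for 7, in shMEK5 for 24 and in shCTRL for 8. The shares of all tested genes with these orders of means were not computed, so these counts do not set the 39 genes apart. The genes Atg7, Cd63, Gabarapl1 and Gusb were called in no comparison. Counts by function are given below for groups of at most 6 genes. Over all tested genes, 32.0% were higher and 31.3% lower in shERK5 against shCTRL, and 23.1% and 25.6% in shMEK5 against shCTRL. In shERK5 against shMEK5 these shares were 22.0% and 17.4%. A count near these shares does not set a group apart. Where the counts by function that follow are 0 for higher or lower genes, edgeR and DESeq2 on the recovered reads also called 0, as did limma at an unadjusted p under 0.05, except for 1 gene, Tfe3, in shERK5 against shMEK5.

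The E-box CACGTG, the palindromic core of the motif bound by TFEB and TFE3, was looked for in RefSeq promoter windows of GRCm38.p6, 250 bases before to 50 after each annotated start. Of the 39 genes 33 had such a window, and 10 of these held CACGTG (30.3%): Ctsa, Ctsd, Ctsl, Gaa, Glb1, Lamp1, Mcoln1, Atp6v0d1, Atg5 and Atg7. The hexamer was present for 12.1% of tested genes and 8.09% of all genes with a window. The longer form TCACGTG or, on the other strand, CACGTGA, which contains it, was present in 8 of the 33 (24.2%), against 7.32% of tested and 4.29% of all genes with a window. Shown are stretches of up to 120 bases that lie before any annotated exon, for a membrane glycoprotein with 4 copies, a calcium channel, a protease and a pair of glycosidases whose levels are given further on; the E-box is in capitals. They lie at chr8:13159041-13159160 (plus strand, Lamp1), chr8:3500337-3500456 (plus strand, Mcoln1), chr7:142388039-142388077 (minus strand, Ctsd), chr9:114400956-114401075 (plus strand, Glb1) and chr11:119267767-119267886 (plus strand, Gaa), each written 5′ to 3′ on the strand of its gene.
Lamp1: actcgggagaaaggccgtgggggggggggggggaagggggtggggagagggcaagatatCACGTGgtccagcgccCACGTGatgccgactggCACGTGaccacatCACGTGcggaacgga
Mcoln1: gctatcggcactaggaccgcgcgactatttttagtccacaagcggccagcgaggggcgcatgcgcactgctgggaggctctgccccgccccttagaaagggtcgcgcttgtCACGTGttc
Ctsd: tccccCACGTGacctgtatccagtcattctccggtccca
Glb1: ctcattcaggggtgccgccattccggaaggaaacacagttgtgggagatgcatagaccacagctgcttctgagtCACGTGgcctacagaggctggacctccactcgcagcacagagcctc
Gaa: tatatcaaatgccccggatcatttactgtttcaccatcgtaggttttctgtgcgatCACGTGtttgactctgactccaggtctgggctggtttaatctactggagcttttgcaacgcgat

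Members with the hexamer were set beside members without it, with no test. Over all tested genes, 32.0% were higher and 31.3% lower in shERK5 against shCTRL, and 23.1% and 25.6% in shMEK5 against shCTRL. In shERK5 against shMEK5 these shares were 22.0% and 17.4%, and a count near them does not set the genes apart. Calls among all tested genes with the hexamer were not counted. In shERK5 against shCTRL, 4 of the 10 genes with it were higher and 2 lower (median log2 fold change 0.08), and of the 23 without it 8 were higher and 8 lower (median -0.03). In shMEK5 against shCTRL, the 10 genes with it held 0 higher and 6 lower (median -0.28) and the 23 without it 3 higher and 12 lower (median -0.29). In shERK5 against shMEK5, 7 of the 10 with it were higher and 0 lower (median 0.41), and 14 of the 23 without it were higher and 3 lower (median 0.24). These are descriptions of the windows, and a match is not evidence that a factor binds there.

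The selective autophagy receptor p62, encoded by Sqstm1 on chromosome 11 (50200152 to 50210820, minus strand), binds ubiquitin on cargo and ATG8 proteins on the growing membrane and is itself degraded by autophagy. Its transcript was measured at 1754, 1805 and 1787 CPM in shERK5, 1413 and 1466 CPM in shMEK5 and 2128, 2223 and 2142 CPM in shCTRL. No group overlapped another, with shMEK5 lowest and shCTRL highest. Expressed as log2 fold change this was -0.28 ± 0.04 (SE, adjusted p = 0.000128, limma) in shERK5 and -0.59 ± 0.04 (adjusted p = 3.88e-06) in shMEK5 against shCTRL, and 0.31 ± 0.04 (adjusted p = 0.000343) in shERK5 against shMEK5. Protein levels of p62, which depend on its degradation as well, were not measured in these files.

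Among the 6 lysosomal proteases, 2 were higher and 2 lower in shERK5 against shCTRL, and 1 was higher and 4 were lower in shMEK5 against shCTRL. Of all tested genes 32.0% were higher and 31.3% lower in shERK5, near the counts here, and 23.1% and 25.6% in shMEK5. Ctsl and Ctsa fell in both knockdowns. Ctsl encodes cathepsin L, a cysteine endopeptidase (chromosome 13, 64361890 to 64370772, minus strand). Its exons overlap those of other annotated genes, as described further on. Its level was 954, 968 and 965 CPM in shERK5, 962 and 989 CPM in shMEK5 and 1695, 1659 and 1549 CPM in shCTRL. All 5 knockdown libraries lay below all 3 control libraries, and the knockdowns overlapped each other. On the log2 scale it changed by -0.76 ± 0.04 (SE; limma, adjusted p = 3.41e-07) in shERK5 and -0.74 ± 0.05 (adjusted p = 2.02e-06) in shMEK5 against shCTRL, and the difference of shERK5 minus shMEK5 was -0.02 with a 95% interval of -0.13 to 0.09. Ctsa encodes cathepsin A, a carboxypeptidase that also protects the glycosidases Glb1 and Neu1 in a complex (chromosome 2, 164832872 to 164841032, plus strand). It was at 97.4, 105 and 102 CPM in shERK5, 92.1 and 99.1 CPM in shMEK5 and 168, 160.3 and 154 CPM in shCTRL. As for Ctsl, the knockdowns overlapped each other and lay well below the controls, with log2 fold changes of -0.66 ± 0.05 (adjusted p = 3.01e-06) in shERK5 and -0.74 ± 0.06 (adjusted p = 5.86e-06) in shMEK5, and 0.09 (95% interval -0.04 to 0.22) for shERK5 minus shMEK5.

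Ctsz went the other way. This gene of cathepsin Z, a cysteine carboxypeptidase (chromosome 2, 174427494 to 174439039, minus strand), was at 539.7, 577 and 569.6 CPM in shERK5, 481 and 529 CPM in shMEK5 and 354, 371 and 352 CPM in shCTRL. Every knockdown library exceeded every control library. Ctsz changed by 0.65 ± 0.05 on the log2 scale (SE; limma, adjusted p = 2.6e-06) in shERK5 and 0.49 ± 0.06 (adjusted p = 6.77e-05) in shMEK5 against shCTRL. The difference of 0.16 ± 0.06 between shERK5 and shMEK5 had an adjusted p of 0.0493 and was not called with RLE (adjusted p = 0.0773) or TMM scaling (0.0859), a pseudocount of 5 (0.0506), no filter (0.0732), the compared groups alone (0.0685), no robust moderation (0.0518), edgeR (0.0872) or DESeq2 (0.104). It was 0.09 (adjusted p = 0.39) without shMEK5 replicate 1. It was not called either without shERK5 replicate 2 (adjusted p = 0.12), shERK5 replicate 3 (0.134), shCTRL replicate 2 (0.0578) or shCTRL replicate 3 (0.0671). Its adjusted p ranged from 0.025 to 0.39 over the alternatives.

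Ctsd and Ctsb were higher in shERK5 than in shMEK5. Ctsd encodes cathepsin D, the main aspartic protease of lysosomes (chromosome 7, 142375910 to 142387827, minus strand), with an E-box in the stretch printed above. Its libraries read 441, 472 and 457 CPM in shERK5, 300.0 and 312 CPM in shMEK5 and 442, 429.6 and 405 CPM in shCTRL. The shMEK5 libraries stood alone at the bottom and the shERK5 and shCTRL libraries overlapped. The fold change on the log2 scale was -0.47 ± 0.05 (SE; adjusted p by limma 6.28e-05) in shMEK5 against shCTRL and 0.57 ± 0.05 (adjusted p = 2.39e-05) in shERK5 against shMEK5. In shERK5 against shCTRL it was 0.10 ± 0.05 (adjusted p = 0.0867), which became 0.13 (adjusted p = 0.0483) without shCTRL replicate 1; its range over the alternatives was 0.0483 to 0.287. Ctsb encodes cathepsin B, a cysteine protease. Its transcript was at 569, 652 and 619.7 CPM in shERK5, 442 and 479 CPM in shMEK5 and 517, 489 and 479 CPM in shCTRL. It was higher in shERK5 than in shCTRL (log2 fold change 0.31 ± 0.06, adjusted p = 0.00103) and than in shMEK5 (0.41 ± 0.07, adjusted p = 0.000702), and shMEK5 against shCTRL gave -0.10 ± 0.07 (adjusted p = 0.209).

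Tpp1, the gene of the tripeptidyl peptidase that removes tripeptides from protein ends, had the widest standard errors among the proteases. It was at 25.1, 23.1 and 29.8 CPM in shERK5, 22.5 and 20.8 CPM in shMEK5 and 25.5, 30.2 and 30.9 CPM in shCTRL. The shMEK5 libraries were the lowest and the shERK5 and shCTRL libraries overlapped. The log2 fold change of -0.39 ± 0.11 in shMEK5 against shCTRL (limma adjusted p = 0.0142) was no longer called without shMEK5 replicate 2 (adjusted p = 0.106, range over the alternatives 0.00374 to 0.106). In shERK5 against shCTRL the value was -0.15 ± 0.10 (adjusted p = 0.218), called without shERK5 replicate 3 at -0.25 (adjusted p = 0.0456, range 0.0456 to 0.571). For shERK5 against shMEK5 it was 0.25 ± 0.11 (adjusted p = 0.103), called without shERK5 replicate 2 at 0.33 (adjusted p = 0.041, range 0.041 to 0.357).

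**Figure D2:**
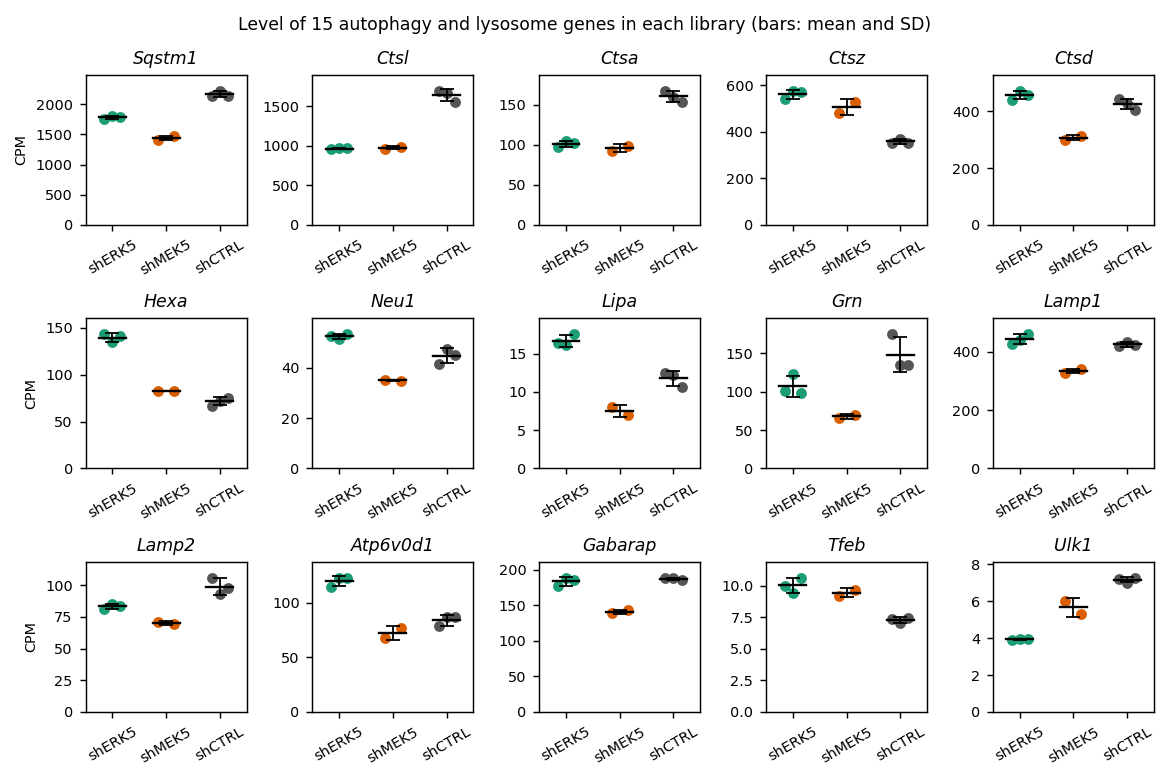
Level in CPM (y axis, from 0) of 15 of the genes in each library (points) of shERK5, shMEK5 and shCTRL (x axis), with group mean and SD as bars. Ctsl and Ctsa are low in all 5 knockdown libraries, Ctsd, Lamp1 and Gabarap are low in the 2 shMEK5 libraries, and Hexa, Lipa and Atp6v0d1 are highest in the 3 shERK5 libraries.

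Of the 5 glycosidases, which trim sugars from glycoproteins, glycolipids and glycogen, 4 were higher and 0 lower in shERK5 against shCTRL, and 1 was higher and 1 lower in shMEK5 against shCTRL. Hexa encodes the alpha subunit of beta-hexosaminidase, which cleaves GM2 ganglioside (chromosome 9, 59539540 to 59565109, plus strand). It had the largest rise of the 39 genes in shERK5 against shCTRL, with 143, 135 and 141 CPM in shERK5, 82.4 and 82.2 CPM in shMEK5 and 66.9, 72.3 and 75.2 CPM in shCTRL. The 3 groups did not overlap. Hexa was 1.95-fold the shCTRL mean in shERK5, a log2 fold change of 0.96 ± 0.05 (SE, limma adjusted p = 2.7e-07), and 0.75 ± 0.06 (adjusted p = 7.24e-06) above shMEK5. The smaller difference of shMEK5 from shCTRL, 0.20 ± 0.06 (adjusted p = 0.0155), was not called without shMEK5 replicate 1 (adjusted p = 0.0727) or without shMEK5 replicate 2 (0.0718), within a range of 0.00752 to 0.0727 over the alternatives.

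Neu1, Glb1 and Gaa were also highest in shERK5. Neu1 encodes a sialidase that removes terminal sialic acid. Its transcript stood at 52.7, 51.2 and 53.3 CPM in shERK5, 35.1 and 34.8 CPM in shMEK5 and 41.6, 47.5 and 45.1 CPM in shCTRL. The groups did not overlap. Neu1 was called in opposite directions against shCTRL, at 0.23 ± 0.06 (SE, limma adjusted p = 0.00518) in shERK5 and -0.34 ± 0.06 (adjusted p = 0.00128) in shMEK5, with 0.57 ± 0.06 (adjusted p = 6.93e-05) between the knockdowns. Glb1, the gene of beta-galactosidase, whose printed stretch holds an E-box, was at 100.1, 119 and 113 CPM in shERK5, 73.1 and 75.7 CPM in shMEK5 and 87.5, 81.1 and 84.0 CPM in shCTRL. It was 0.39 ± 0.06 above shCTRL (adjusted p = 0.000396) and 0.57 ± 0.07 above shMEK5 (adjusted p = 0.00017) in shERK5. Its value of -0.18 ± 0.07 in shMEK5 against shCTRL (adjusted p = 0.0658) was called without shERK5 replicate 1 (adjusted p = 0.0202) and without shERK5 replicate 2 (0.0451), and with the compared groups alone (0.0314), within a range of 0.0202 to 0.24.

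Gaa encodes the acid alpha-glucosidase that degrades glycogen, and it too carries an E-box in the stretch printed above. It was at 163, 181 and 167 CPM in shERK5, 123 and 132 CPM in shMEK5 and 147, 137 and 131 CPM in shCTRL. The shERK5 libraries stood above the other groups, which overlapped. The log2 fold change was 0.30 ± 0.06 against shCTRL (limma adjusted p = 0.00136) and 0.41 ± 0.07 against shMEK5 (adjusted p = 0.000803). In shMEK5 against shCTRL it was -0.11 ± 0.07 (adjusted p = 0.192). Gusb, the gene of beta-glucuronidase, varied widely within groups, at 40.4, 52.4 and 45.1 CPM in shERK5, 41.2 and 44.8 CPM in shMEK5 and 56.8, 48.6 and 46.7 CPM in shCTRL. It was not called in any comparison, although -0.14 ± 0.10 in shERK5 against shCTRL (adjusted p = 0.247) became -0.24 (adjusted p = 0.0412, range 0.0412 to 0.635) without shERK5 replicate 2. In shMEK5 against shCTRL it was -0.23 ± 0.11 (limma adjusted p = 0.12), called with the compared groups alone (adjusted p = 0.0436, range 0.0436 to 0.397).

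The 6 genes of lipid handling proteins and progranulin held the largest differences of the set, with 3 higher and 2 lower in shERK5 against shCTRL, 0 higher and 5 lower in shMEK5 against shCTRL, and 5 higher and 1 lower in shERK5 against shMEK5. Lipa encodes lysosomal acid lipase, which hydrolyses cholesteryl esters and triglycerides (chromosome 19, 34492316 to 34527474, minus strand). It was at 16.3, 16.1 and 17.5 CPM in shERK5, 8.02 and 6.92 CPM in shMEK5 and 12.5, 12.2 and 10.6 CPM in shCTRL. The groups did not overlap, and the knockdowns lay on opposite sides of the controls. Lipa was 2.23-fold the shMEK5 mean in shERK5, a log2 fold change of 1.06 ± 0.09 (SE, limma adjusted p = 1.49e-05). Against shCTRL it was 0.47 ± 0.08 (adjusted p = 0.000607) in shERK5 and -0.59 ± 0.09 (adjusted p = 0.000458) in shMEK5.

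Grn encodes progranulin, a secreted and lysosomal protein that is cut into granulin peptides and supports hydrolases of the lysosome (chromosome 11, 102430507 to 102436809, plus strand). It was at 100.3, 123 and 97.9 CPM in shERK5, 65.6 and 69.9 CPM in shMEK5 and 175, 135 and 135 CPM in shCTRL. The groups did not overlap, and shCTRL replicate 1 stood above the other shCTRL libraries. Its mean in shMEK5 was 45.7% of that in shCTRL, a log2 fold change of -1.11 ± 0.13 (SE, limma adjusted p = 0.000244), and in shERK5 it was 72.2% of that in shCTRL, at -0.46 ± 0.12 (adjusted p = 0.0087). The difference of 0.64 ± 0.13 between shERK5 and shMEK5 (adjusted p = 0.00534) was 0.60 with an adjusted p of 0.0527 without shMEK5 replicate 1, in a range of 6.08e-06 to 0.0527.

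Psap encodes prosaposin, the precursor of the saposins that help enzymes reach sphingolipids, and interacts with progranulin. It was at 223, 249 and 249 CPM in shERK5, 278 and 289 CPM in shMEK5 and 381, 354 and 338 CPM in shCTRL. The order of the groups was the reverse of that of Grn among the knockdowns, with shERK5 lowest and no overlap. Against shCTRL it changed by -0.57 ± 0.06 (log2, SE; limma, adjusted p = 1.85e-05) in shERK5 and -0.33 ± 0.07 (adjusted p = 0.0022) in shMEK5. The -0.24 ± 0.07 of shERK5 against shMEK5 (adjusted p = 0.0169) was not called without shMEK5 replicate 1 (adjusted p = 0.0568) or shMEK5 replicate 2 (0.106), in a range of 0.0023 to 0.106. Asah1 encodes acid ceramidase, which splits ceramide. Its libraries were tightly grouped at 309, 317 and 322 CPM in shERK5, 224 and 218 CPM in shMEK5 and 284, 283 and 281 CPM in shCTRL. Asah1 was higher in shERK5 (0.16 ± 0.04, adjusted p = 0.00533) and lower in shMEK5 (-0.36 ± 0.04, adjusted p = 0.00012) than in shCTRL, and differed by 0.52 ± 0.04 between the knockdowns (adjusted p = 1.52e-05).

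Npc1 and Npc2 encode the membrane and the soluble protein that pass cholesterol out of the lysosome. Npc1 was at 38.1, 45.3 and 43.9 CPM in shERK5, 31.8 and 29.8 CPM in shMEK5 and 34.4, 31.6 and 32.6 CPM in shCTRL, so that only the shERK5 libraries stood apart. It was 0.36 ± 0.07 above shCTRL (limma adjusted p = 0.00134) and 0.45 ± 0.08 above shMEK5 (adjusted p = 0.00133) in shERK5, and -0.09 ± 0.08 in shMEK5 against shCTRL (adjusted p = 0.361). Its exons overlap those of Rmc1 on the opposite strand. Rmc1 averaged 39.5 CPM in shERK5, 29.6 CPM in shMEK5 and 34.1 CPM in shCTRL. The sources used here do not say whether counting used strand, so the share of reads from each gene is uncertain. Npc2 was at 410.2, 439 and 415 CPM in shERK5, 354 and 363 CPM in shMEK5 and 465, 441 and 409.8 CPM in shCTRL, with shMEK5 lowest and the other groups overlapping. It fell in shMEK5 against shCTRL (-0.29 ± 0.06, adjusted p = 0.00259), while shERK5 against shCTRL gave -0.06 ± 0.05 (adjusted p = 0.37). The 0.23 ± 0.06 between shERK5 and shMEK5 (adjusted p = 0.0107) was not called without shMEK5 replicate 1 (0.21, adjusted p = 0.0816, range 0.00555 to 0.0816).

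Of the 5 membrane proteins, 1 was higher and 1 lower in shERK5 against shCTRL, 0 were higher and 3 lower in shMEK5 against shCTRL, and 4 were higher in shERK5 than in shMEK5. Over all tested genes 32.0% were higher and 31.3% lower in shERK5, and 23.1% and 25.6% in shMEK5, against shCTRL. Lamp1 and Lamp2 encode the abundant glycoproteins that line the inner face of the lysosomal membrane. Lamp1 (chromosome 8, 13159161 to 13175338, plus strand), with 4 E-boxes in the stretch printed above, was at 426, 442 and 460.4 CPM in shERK5, 329 and 339.6 CPM in shMEK5 and 418, 435 and 423 CPM in shCTRL. The shERK5 and shCTRL libraries overlapped and the shMEK5 libraries lay below them. The limma log2 fold change was -0.35 ± 0.05 (SE, adjusted p = 0.000266) in shMEK5 against shCTRL, 0.40 ± 0.05 (adjusted p = 0.000137) in shERK5 against shMEK5 and 0.06 ± 0.04 (adjusted p = 0.292) in shERK5 against shCTRL. Lamp2 (chromosome X, 38399647 to 38456460, minus strand), of which a splice form serves chaperone-mediated autophagy, was at 81.2, 84.8 and 83.3 CPM in shERK5, 71.2 and 69.0 CPM in shMEK5 and 106, 92.6 and 97.7 CPM in shCTRL. In both knockdowns Lamp2 was lower than in shCTRL, with -0.24 ± 0.05 (adjusted p = 0.00278) in shERK5 and -0.49 ± 0.06 (adjusted p = 0.000116) in shMEK5. The 0.24 ± 0.06 between shERK5 and shMEK5 (adjusted p = 0.00932) was 0.22 with an adjusted p of 0.0697 without shMEK5 replicate 2, in a range of 0.00352 to 0.0697.

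Mcoln1 encodes the lysosomal calcium channel TRPML1, whose calcium release is known to activate TFEB, and holds an E-box in its printed stretch. It was at 34.1, 36.7 and 35.9 CPM in shERK5, 24.3 and 28.8 CPM in shMEK5 and 35.9, 35.4 and 34.7 CPM in shCTRL. The shERK5 and shCTRL libraries overlapped, with a difference of 0.01 (95% interval -0.14 to 0.16). Both shMEK5 libraries were lower, at -0.40 ± 0.07 (SE, limma adjusted p = 0.00139) against shCTRL. For its part, shERK5 exceeded shMEK5 by 0.41 ± 0.07 (adjusted p = 0.00152). Scarb2 encodes LIMP-2, an abundant glycoprotein of the lysosomal membrane. Its levels were 124, 135 and 136 CPM in shERK5, 101 and 95.9 CPM in shMEK5 and 90.6, 95.3 and 95.4 CPM in shCTRL. It was higher in shERK5 than in shCTRL (0.48 ± 0.05, adjusted p = 2.03e-05) and than in shMEK5 (0.42 ± 0.06, adjusted p = 0.000291), and was 0.07 ± 0.06 in shMEK5 against shCTRL (adjusted p = 0.353). Cd63, a tetraspanin of late endosomes and exosomes, was at 38.6, 52.3 and 48.4 CPM in shERK5, 42.5 and 44.7 CPM in shMEK5 and 44.2, 40.4 and 38.2 CPM in shCTRL, with overlap between all groups. It was called in no comparison, but 0.17 ± 0.10 in shERK5 against shCTRL (adjusted p = 0.179) became 0.29 (adjusted p = 0.00393, range 0.00393 to 0.501) without shERK5 replicate 1, its lowest shERK5 library.

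Of the 3 proton pump subunits, 2 were higher and 0 lower in shERK5 against shCTRL, 0 were higher and 2 lower in shMEK5 against shCTRL, and all 3 were higher in shERK5 than in shMEK5. Atp6v0d1 encodes the subunit that joins the membrane sector to the central stalk (chromosome 8, 105524461 to 105566064, minus strand). It was at 115, 123 and 123 CPM in shERK5, 67.8 and 77.1 CPM in shMEK5 and 78.5, 86.6 and 86.6 CPM in shCTRL, with no overlap. By limma, the log2 fold change was 0.51 ± 0.06 (SE, adjusted p = 4.86e-05) in shERK5 against shCTRL and 0.72 ± 0.07 (adjusted p = 2.78e-05) in shERK5 against shMEK5. The -0.21 ± 0.07 in shMEK5 against shCTRL (adjusted p = 0.0283) rested on shMEK5 replicate 1, without which it was -0.12 (adjusted p = 0.267). It was not called either without shCTRL replicate 2 (0.0815), without shCTRL replicate 3 (0.0848) or with no filter on low values (0.054), in a range of 0.0116 to 0.267.

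Atp6v1h, a regulatory subunit of the cytosolic sector, was at 180.0, 176 and 179 CPM in shERK5, 131 and 126 CPM in shMEK5 and 129, 135 and 145 CPM in shCTRL. The shERK5 libraries stood above all others. The difference was 0.38 ± 0.05 over shCTRL (limma adjusted p = 8.52e-05) and 0.47 ± 0.06 over shMEK5 (adjusted p = 0.000119). The shMEK5 libraries overlapped shCTRL (-0.09 ± 0.06, adjusted p = 0.234). Atp6ap1, an accessory subunit needed for assembly and trafficking of the pump, was at 141, 147 and 147 CPM in shERK5, 102 and 112 CPM in shMEK5 and 136, 138 and 139.9 CPM in shCTRL. Here the shMEK5 libraries stood apart, at -0.36 ± 0.05 (adjusted p = 0.000339) against shCTRL, with 0.43 ± 0.05 (adjusted p = 0.000153) for shERK5 against shMEK5 and 0.07 ± 0.05 (adjusted p = 0.239) for shERK5 against shCTRL.

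**Figure D3:**
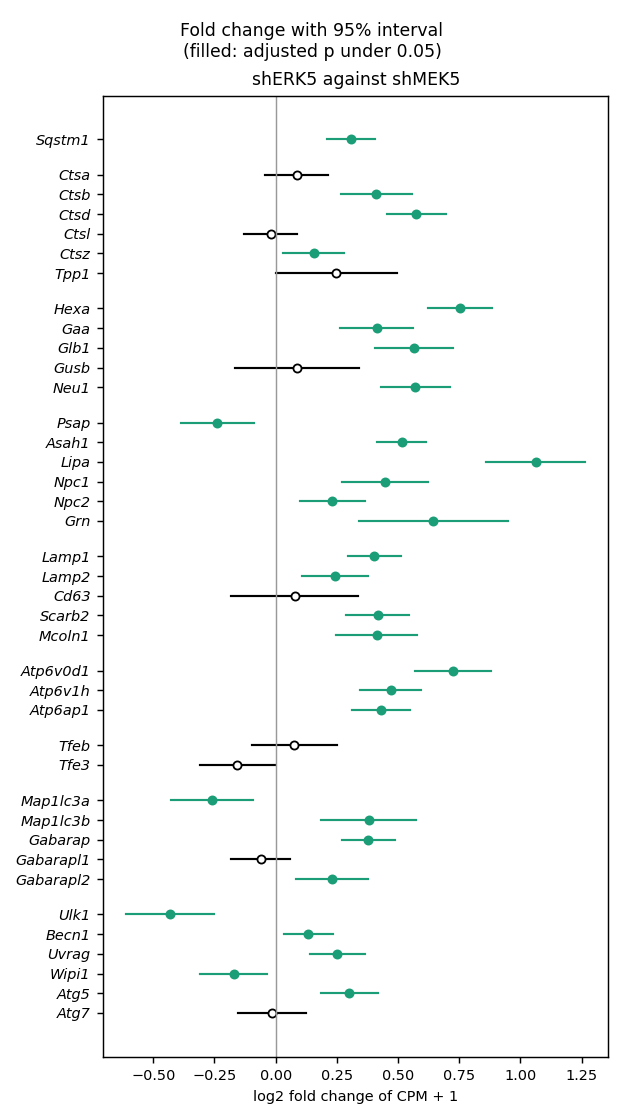
Log2 fold change of CPM + 1 (x axis) of the 39 genes, grouped by function (y axis), in shERK5 against shMEK5. Points are limma estimates with 95% intervals, filled where the adjusted p is under 0.05; 26 filled points lie right of 0 and 4 left of it (Psap, Map1lc3a, Ulk1 and Wipi1), with Lipa farthest to the right at 1.06.

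Of the 2 transcription factor genes, 1 was higher and 1 lower in shERK5 against shCTRL, 1 was higher and 0 lower in shMEK5 against shCTRL, and 0 were called between the knockdowns. Tfeb (chromosome 17, 47737037 to 47792416, plus strand) was at 10.00, 9.45 and 10.6 CPM in shERK5, 9.20 and 9.70 CPM in shMEK5 and 7.36, 7.04 and 7.47 CPM in shCTRL. All 5 knockdown libraries exceeded all 3 controls and the knockdowns overlapped each other. Tfeb rose by 0.41 ± 0.07 on the log2 scale (SE, limma, adjusted p = 0.000495) in shERK5 and 0.33 ± 0.08 (adjusted p = 0.00525) in shMEK5 against shCTRL, with 0.08 (95% interval -0.10 to 0.25) for shERK5 minus shMEK5. Tfe3 (chromosome X, 7762530 to 7775202, plus strand) was at 13.3, 14.4 and 14.3 CPM in shERK5, 15.8 and 15.7 CPM in shMEK5 and 17.4, 17.2 and 16.4 CPM in shCTRL. It was lower in shERK5 than in shCTRL (-0.26 ± 0.06, adjusted p = 0.0036), and the values for shMEK5 against shCTRL (-0.11 ± 0.07, adjusted p = 0.224) and for shERK5 against shMEK5 (-0.16 ± 0.07, adjusted p = 0.0955) were not called. With TMM scaling that of shERK5 against shMEK5 was -0.18 (adjusted p = 0.0495, range 0.0495 to 0.275). The activity of both factors is set largely by phosphorylation and nuclear entry, which transcript levels do not show.

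In the ATG8 family, whose members are joined to lipid on the autophagosome, 1 of 5 genes was higher and 2 lower in shERK5 against shCTRL, 0 were higher and 2 lower in shMEK5 against shCTRL, and 3 were higher and 1 lower in shERK5 against shMEK5. Gabarap (chromosome 11, 69991370 to 69994949, plus strand) was at 176, 189 and 186 CPM in shERK5, 139 and 143 CPM in shMEK5 and 188, 189 and 186 CPM in shCTRL. The shMEK5 libraries lay below the others, at -0.41 ± 0.05 (SE, limma adjusted p = 8.05e-05) against shCTRL, and shERK5 exceeded shMEK5 by 0.38 ± 0.05 (adjusted p = 0.000176). The difference of shERK5 minus shCTRL was -0.03 (95% interval -0.13 to 0.07). Map1lc3b, the gene of LC3B, the usual marker of autophagosomes, was at 44.2, 53.7 and 51.2 CPM in shERK5, 36.8 and 39 CPM in shMEK5 and 62.4, 58.3 and 53.7 CPM in shCTRL. It was -0.60 ± 0.09 (adjusted p = 0.000303) in shMEK5 against shCTRL. In shERK5, whose libraries overlapped shCTRL, it was -0.22 ± 0.08 (adjusted p = 0.0281), and -0.14 (0.0918) without shERK5 replicate 1, -0.17 (0.0983) without shCTRL replicate 1, -0.22 (0.0696) without shCTRL replicate 2 and -0.22 (0.0586) with no filter on low values, in a range of 0.0126 to 0.0983. The 0.38 ± 0.09 between shERK5 and shMEK5 (adjusted p = 0.00618) was 0.34 with an adjusted p of 0.0602 without shMEK5 replicate 1 (range 0.000704 to 0.0602). Exons of Map1lc3b overlap those of Zcchc14 on the opposite strand over 58 bases. Zcchc14 averaged 77.9 CPM in shERK5, 84.4 CPM in shMEK5 and 102 CPM in shCTRL.

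Map1lc3a, the gene of LC3A, was at 18.5, 18.3 and 18.3 CPM in shERK5, 22.3 and 22.0 CPM in shMEK5 and 21.7, 25.8 and 24.3 CPM in shCTRL. The shERK5 libraries were the lowest, at -0.36 ± 0.07 (SE, limma adjusted p = 0.000932) against shCTRL, and shMEK5 overlapped shCTRL (-0.10 ± 0.08, adjusted p = 0.286). The -0.26 ± 0.08 of shERK5 against shMEK5 (adjusted p = 0.0201) was not called without shMEK5 replicate 1 (0.104), shMEK5 replicate 2 (0.0782) or shERK5 replicate 3 (0.053), in a range of 0.00747 to 0.104. Gabarapl2, known as GATE-16 and linked to transport through the Golgi as well as to autophagy, was at 26.6, 28.9 and 27.8 CPM in shERK5, 24.2 and 22.8 CPM in shMEK5 and 24.0, 23.1 and 22.3 CPM in shCTRL. It was higher in shERK5 than in shCTRL (0.26 ± 0.06, adjusted p = 0.00341) and was 0.02 ± 0.07 in shMEK5 against shCTRL (adjusted p = 0.783). Its 0.23 ± 0.07 between shERK5 and shMEK5 (adjusted p = 0.0181) was not called without shMEK5 replicate 2 (0.128), shERK5 replicate 2 (0.0605) or shERK5 replicate 3 (0.0508), in a range of 0.0144 to 0.128. Gabarapl1, a close relative of Gabarap, was at 119.8, 130.2 and 127 CPM in shERK5, 127 and 135 CPM in shMEK5 and 123, 119 and 121 CPM in shCTRL. It was called in no comparison, with log2 differences of 0.05 ± 0.05, 0.11 ± 0.05 and -0.06 ± 0.05 for shERK5 against shCTRL, shMEK5 against shCTRL and shERK5 against shMEK5.

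Of the 6 genes of initiation, nucleation and conjugation, 3 were higher and 2 lower in shERK5 against shCTRL, and 0 were higher and 1 lower in shMEK5 against shCTRL. The shares over all tested genes were 32.0% higher and 31.3% lower in shERK5, and 23.1% and 25.6% in shMEK5, against shCTRL. Ulk1 encodes the kinase that starts autophagy and is held back by mTORC1 (chromosome 5, 110784489 to 110810120, minus strand). It was at 3.89, 3.94 and 3.96 CPM in shERK5, 6.01 and 5.30 CPM in shMEK5 and 7.21, 6.99 and 7.27 CPM in shCTRL. The groups did not overlap and shERK5 was lowest, at 54.9% of the shCTRL mean. Its log2 fold change in shERK5 was -0.73 ± 0.07 (SE, limma adjusted p = 1.32e-05) against shCTRL and -0.43 ± 0.08 (adjusted p = 0.00191) against shMEK5. The -0.29 ± 0.08 in shMEK5 against shCTRL (adjusted p = 0.0122) was -0.22 with an adjusted p of 0.123 without shMEK5 replicate 2 (range 0.00699 to 0.123). At this low level the pseudocount matters, and with 5 CPM added in place of 1 these values became -0.44, -0.25 and -0.19.

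Atg5 encodes the protein that, joined to Atg12, helps attach ATG8 proteins to lipid. It was at 81.6, 88.9 and 86.1 CPM in shERK5, 69.1 and 69.2 CPM in shMEK5 and 64.9, 64.1 and 64.3 CPM in shCTRL, with shERK5 highest and no overlap. Atg5 differed by 0.40 ± 0.05 on the log2 scale (SE, limma, adjusted p = 3.58e-05) against shCTRL and 0.30 ± 0.05 (adjusted p = 0.00114) against shMEK5, and 0.10 ± 0.05 in shMEK5 against shCTRL (adjusted p = 0.131). Uvrag, a Beclin 1 partner in the class III PI3 kinase complex that acts on endosomes and autophagosomes, was at 100.4, 95.7 and 100.2 CPM in shERK5, 81.3 and 84.2 CPM in shMEK5 and 80.9, 82.9 and 85.3 CPM in shCTRL. It was 0.25 ± 0.05 above shCTRL (adjusted p = 0.000777) and 0.25 ± 0.05 above shMEK5 (adjusted p = 0.00281) in shERK5, and the difference of shMEK5 minus shCTRL lay in a 95% interval of -0.12 to 0.11.

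Becn1, the gene of Beclin 1 in the same lipid kinase complex, moved little, at 163, 168 and 165 CPM in shERK5, 149 and 153 CPM in shMEK5 and 153, 151 and 149 CPM in shCTRL. The shERK5 libraries stood above the others, by 0.13 ± 0.04 over shCTRL (limma adjusted p = 0.017). This was not called without shERK5 replicate 2 (0.0598), shERK5 replicate 3 (0.0517) or shCTRL replicate 3 (0.0561), in a range of 0.0125 to 0.0598. The 0.13 ± 0.05 over shMEK5 (adjusted p = 0.0389) was not called without shMEK5 replicate 1 (0.209), shMEK5 replicate 2 (0.0972), shERK5 replicate 2 (0.106), shERK5 replicate 3 (0.096), shCTRL replicate 2 (0.054) or shCTRL replicate 3 (0.0531). Nor was it called with RLE (0.0665) or TMM scaling (0.0784), the compared groups alone (0.0533), edgeR (0.0697) or DESeq2 (0.0778). Exons of Becn1 overlap those of Cntd1 on the opposite strand, which averaged 0.181 CPM in shERK5, 0.571 CPM in shMEK5 and 0.279 CPM in shCTRL.

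Wipi1, which binds the phosphoinositide made by that complex, was at 29.4, 31.3 and 31.5 CPM in shERK5, 34.7 and 34.7 CPM in shMEK5 and 37.1, 36.5 and 34.1 CPM in shCTRL. It was lower in shERK5 than in shCTRL (-0.22 ± 0.06, limma adjusted p = 0.00559). The -0.17 ± 0.06 of shERK5 against shMEK5 (adjusted p = 0.0493) was called only narrowly. It was not called with the replicate block (adjusted p = 0.0938), a pseudocount of 5 (0.0502), no filter (0.0588), the compared groups alone (0.0607) or no robust moderation (0.0506). Nor was it called without shMEK5 replicates 1 (0.173) and 2 (0.155), shERK5 replicates 1 (0.119), 2 (0.0718) and 3 (0.0754) or shCTRL replicates 2 (0.0661) and 3 (0.0513), in a range of 0.0236 to 0.173. Atg7, the gene of the enzyme that activates ATG8 proteins and Atg12, was at 21.8, 21.5 and 22.5 CPM in shERK5, 22.2 and 22.1 CPM in shMEK5 and 22.6, 23.9 and 22.3 CPM in shCTRL. It was called in no comparison, with 95% intervals of -0.18 to 0.06 for shERK5 against shCTRL, -0.19 to 0.09 for shMEK5 against shCTRL and -0.15 to 0.12 for shERK5 against shMEK5.

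Levels of different genes were compared per kilobase of exon, because longer transcripts give more reads. In shCTRL, Ctsl at 829 ± 38.5 CPM per kilobase and Sqstm1 at 767 ± 18.2 (SD, n = 3) were highest, and their ranges overlapped. Ctsz at 249 ± 7.48, Ctsd at 200.1 ± 8.78, Lamp1 at 191 ± 3.83 and Gabarap at 139 ± 1.09 CPM per kilobase came next. At the low end were Tfe3 at 4.85 ± 0.143, Lipa at 3.97 ± 0.343, Tfeb at 2.54 ± 0.0771 and Ulk1 at 1.37 ± 0.0275 CPM per kilobase. A start kinase and the transcription factors were thus among the least abundant transcripts of the set. The luminal proteases Ctsl, Ctsz and Ctsd were among the most abundant. Other proteases lay lower, with Ctsa at 43.7 ± 1.87 (rank 16) and Tpp1 at 8.11 ± 0.817 (rank 33) CPM per kilobase. Of the 38 neighbouring pairs in this order, 19 had overlapping ranges over the 3 libraries. The length used was that of merged exons of the GENCODE M21 transcripts paired with RefSeq.

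**Figure D4:**
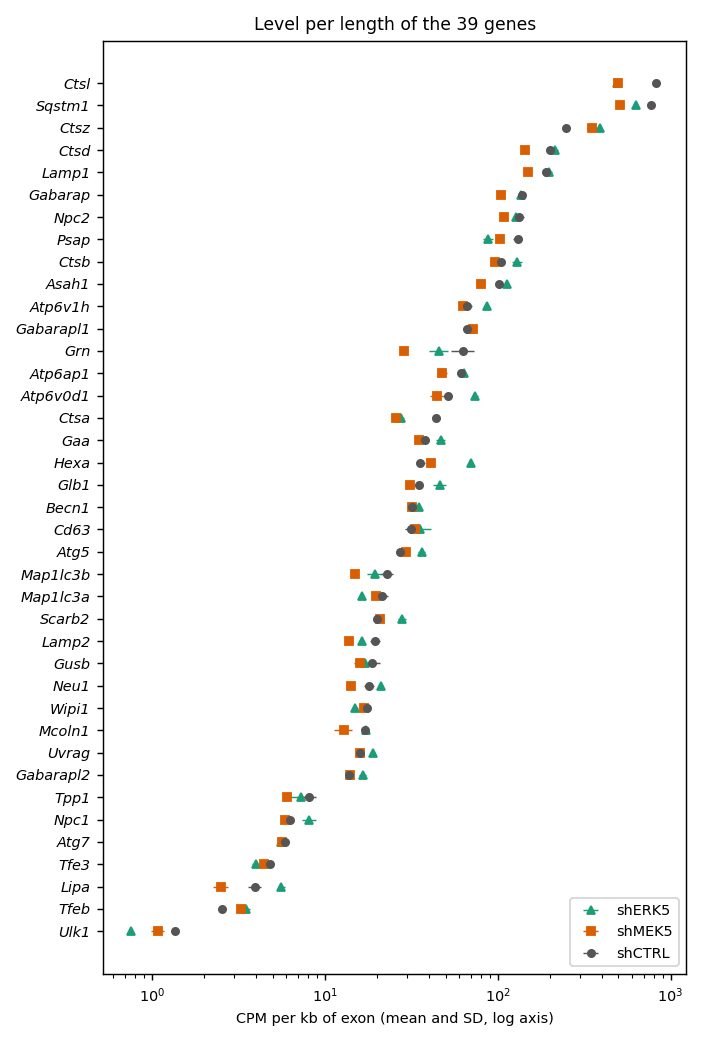
Mean level and SD of each of the 39 genes in CPM per kilobase of exon (x axis, log scale) in shERK5, shMEK5 and shCTRL (marker shapes), ordered by the level in shCTRL (y axis). Ctsl and Sqstm1 lead and Tfeb and Ulk1 are lowest; the differences between groups are small beside those between genes.

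Exons of 14 of the 39 genes overlap annotated exons of another gene, in 9 cases a protein-coding gene on the opposite strand that is also in the files. The library kit marks strand, but whether counting used it is not stated in the sources used here, so levels of these genes are uncertain. Besides Npc1, Map1lc3b and Becn1, the partner was Nelfcd for Ctsz, at 55.6 CPM in shERK5, 57.5 CPM in shMEK5 and 56.4 CPM in shCTRL. For Sqstm1 it was Mrnip, at 28.1 CPM in shERK5, 32.8 CPM in shMEK5 and 28.4 CPM in shCTRL. For Ctsa the partners were Pltp, at 31.1 CPM in shERK5, 17.3 CPM in shMEK5 and 20.2 CPM in shCTRL, and Neurl2, at 2.56, 2.72 and 3.99 CPM in those groups. For Ctsb it was Fdft1, at 20.7 CPM in shERK5, 20.03 CPM in shMEK5 and 26.4 CPM in shCTRL. Grtp1, for Lamp1, and Rgs20, for Atp6v1h, averaged at most 0.475 and 1.97 CPM in any group. Ctsl overlaps an antisense gene and a processed pseudogene that were not analysed here. This overlap was 2137 bases summed over both, beside the 1971 bases of exon used for its length. The level of Ctsl, also per kilobase, is therefore uncertain. Ctsd overlaps the protein-coding gene Gm49369 over 670 bases on the same strand, and Gm49369 was not analysed either. Glb1 overlaps Tmppe on the same strand, which averaged 11.2 CPM in shERK5, 10.2 CPM in shMEK5 and 14.6 CPM in shCTRL. Counting by strand does not separate such pairs. None of the 39 genes had the same reads in all libraries as another gene.

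A further 162 genes of the same systems, listed by function, were counted in the same way, and 153 of them were tested. These lists, too, were chosen with earlier results of these data known. In shERK5 against shCTRL 60 were higher and 45 lower (39.2% and 29.4%, median log2 fold change 0.05), and in shMEK5 against shCTRL 14 were higher and 66 lower (9.15% and 43.1%, median -0.12). In shERK5 against shMEK5 75 were higher and 11 lower (49.0% and 7.19%, median 0.20). Over all tested genes the shares were 32.0% higher and 31.3% lower in shERK5 against shCTRL, near those of these genes. They were 23.1% and 25.6% in shMEK5 against shCTRL, and 22.0% and 17.4% in shERK5 against shMEK5. The counts by list that follow stand beside the same shares. The count of 75 moved both down and up as libraries were left out, and ranged from 71 to 76 over the other alternatives. The count of genes higher in shMEK5 was 8 without shMEK5 replicate 2, and that of genes lower in shERK5 than in shMEK5 was 5 without shMEK5 replicate 1 and 7 without shMEK5 replicate 2. The calls of the genes of these lists named here were kept in every alternative tried. These genes were picked for their small adjusted p, so this does not show that other calls in the lists hold.

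The 27 genes listed as other hydrolases, which include some related proteins, had 10 higher and 8 lower in shERK5 against shCTRL. They had 0 higher and 17 lower in shMEK5 against shCTRL, and 17 higher and 2 lower in shERK5 against shMEK5. Gla, the gene of alpha-galactosidase A, averaged 44.4 ± 1.02 CPM in shERK5 and 24.5 ± 0.21 CPM in shMEK5 (SD, n = 3 and 2), a log2 fold change of 0.83 ± 0.06 (SE, limma adjusted p = 3.74e-06). Of 8 further genes tested from the list of peptidases and related enzymes, 3 were higher and 1 lower in each knockdown against shCTRL. Dpp7, a dipeptidyl peptidase, averaged 9.44 ± 0.096 CPM in shMEK5 and 20.7 ± 1.18 CPM in shCTRL (-1.06 ± 0.07, adjusted p = 2.1e-06), and Lgmn, the gene of the asparaginyl endopeptidase legumain, averaged 181 ± 7.15 CPM in shERK5 and 116 ± 2.96 CPM in shCTRL (0.64 ± 0.05, adjusted p = 2e-06).

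Of 14 proton pump genes outside the 39, 11 were higher and 2 lower in shERK5 against shCTRL and 11 were higher and 1 lower in shERK5 against shMEK5, while shMEK5 against shCTRL gave 2 higher and 3 lower. Atp6v0b, of the proteolipid ring, averaged 275 ± 9.05 CPM in shERK5 and 159 ± 9.33 CPM in shCTRL (log2 fold change 0.79 ± 0.06, limma adjusted p = 1.57e-06). Tcirg1, which encodes an a-type membrane subunit, was higher in both knockdowns, averaging 103 ± 10.8 CPM in shERK5, 91.3 ± 4.63 CPM in shMEK5 and 63.4 ± 2.54 CPM in shCTRL, with 0.69 ± 0.07 (adjusted p = 1.67e-05) and 0.52 ± 0.08 (adjusted p = 0.000415) for shERK5 and shMEK5 against shCTRL. Of 17 other membrane and transport proteins, 8 were higher and 4 lower in shERK5 and 1 was higher and 8 lower in shMEK5 against shCTRL. Ctns, the gene of the cystine exporter, averaged 20.9 ± 1.99 CPM in shERK5 and 11.1 ± 0.28 CPM in shMEK5 (0.85 ± 0.08, adjusted p = 2.85e-05). For sorting, 4 of 13 genes were higher and 1 lower in shERK5 and 2 were higher and 2 lower in shMEK5 against shCTRL. M6pr, the cation-dependent mannose 6-phosphate receptor, averaged 249 ± 5.75 CPM in shERK5 and 169 ± 1.94 CPM in shCTRL (0.56 ± 0.04, adjusted p = 1.67e-06). Igf2r, the cation-independent receptor, averaged 566 ± 18.9 CPM in shERK5 and 732 ± 4.72 CPM in shCTRL (-0.37 ± 0.04, adjusted p = 4.17e-05).

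Among 21 regulators of mTORC1 and TFEB at the lysosome, 4 were higher and 7 lower in shERK5 and 1 was higher and 9 were lower in shMEK5 against shCTRL. Mitf, a relative of Tfeb and Tfe3, averaged 22.5 ± 1.46 CPM in shERK5 and 39.1 ± 2.62 CPM in shCTRL (log2 fold change -0.77 ± 0.07, limma adjusted p = 5.31e-06). Flcn, the gene of folliculin, which acts on the Rag GTPases, averaged 76.3 ± 6.10 CPM in shMEK5 and 117 ± 0.549 CPM in shCTRL (-0.61 ± 0.06, adjusted p = 2.76e-05). Of 19 further initiation and nucleation genes, 6 were higher and 10 lower in shERK5 and 1 was higher and 11 were lower in shMEK5 against shCTRL. Wdr45, a relative of Wipi1, was lower in both, averaging 20.3 ± 0.56 CPM in shERK5, 23.4 ± 0.454 CPM in shMEK5 and 36.8 ± 1.67 CPM in shCTRL, with -0.83 ± 0.06 (adjusted p = 1.08e-06) for shERK5 and -0.63 ± 0.06 (adjusted p = 2.6e-05) for shMEK5 against shCTRL.

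Conjugation genes beyond Atg5 and Atg7 included 5 of 9 higher and 1 lower in shERK5 and 2 higher and 3 lower in shMEK5 against shCTRL. Atg12, the ubiquitin-like partner of Atg5, averaged 107 ± 3.02 CPM in shERK5 and 79.5 ± 0.362 CPM in shMEK5 (log2 fold change 0.43 ± 0.05, limma adjusted p = 7.07e-05). Of 12 other receptors, 5 were higher and 5 lower in shERK5 and 1 was higher and 5 were lower in shMEK5 against shCTRL. Ncoa4, the ferritin receptor, averaged 263 ± 5.16 CPM in shERK5, 225 ± 5.22 CPM in shMEK5 and 181 ± 7.95 CPM in shCTRL, with 0.54 ± 0.05 (adjusted p = 4.58e-06) for shERK5 and 0.31 ± 0.05 (adjusted p = 0.000696) for shMEK5 against shCTRL. Of 13 genes of autophagosome and endosome fusion, 4 were higher and 6 lower in shERK5 and 1 was higher and 7 were lower in shMEK5 against shCTRL. Tecpr1, a tether of autophagosomes and lysosomes, averaged 42.5 ± 2.16 CPM in shERK5 and 25.9 ± 0.253 CPM in shMEK5 (0.69 ± 0.06, adjusted p = 1.24e-05).

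**Figure D5:**
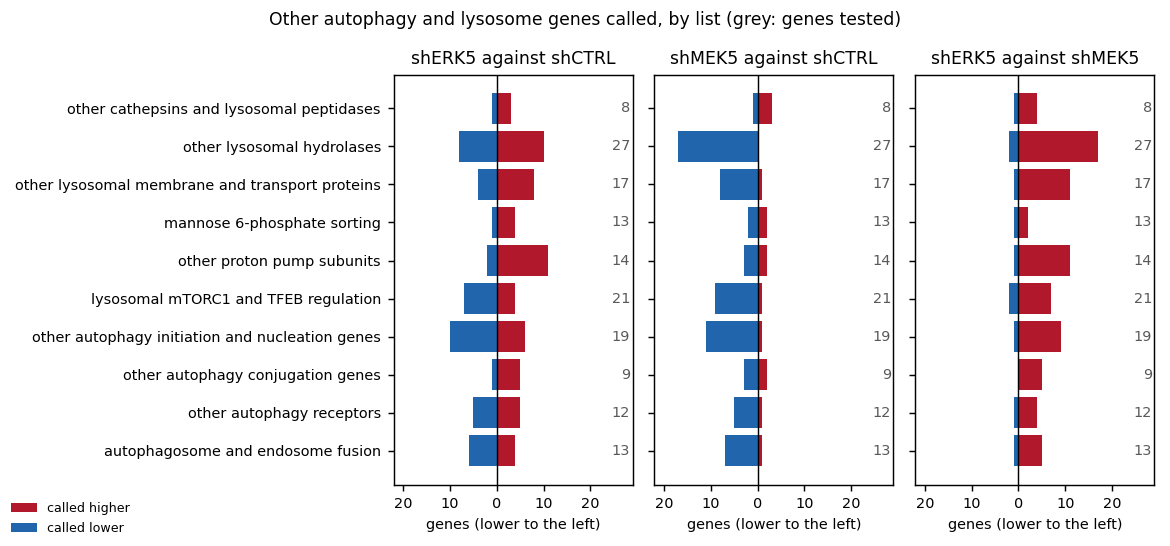
Number of genes (x axis) called higher or lower in each of 10 lists of other autophagy and lysosome genes (y axis), in shERK5 against shCTRL, shMEK5 against shCTRL and shERK5 against shMEK5, with the number tested in grey. In shMEK5 against shCTRL the list of other hydrolases has 17 lower and 0 higher of 27. In shERK5 against shCTRL 11 of 14 proton pump genes are higher.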

How the data were processed

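Total RNA of 4T1 cells was depleted of ribosomal RNA and made into strand-specific libraries, per the labels' protocols. The authors deposited CPM per gene, listed by Entrez number; per the submitters' processing notes, STAR and the build mm10 were used. Its version, the annotation, the counting program and whether it used strand are not stated in the sources used here. Each value was a whole number of reads to within 0.01 read, so reads could be recovered. Libraries were assigned to hairpins by their titles. Symbols were matched for 24374 of 24454 genes, and for all 39 members, through RefSeq's gene table of GRCm38.p6. A gene was tested if its CPM reached 1 in 2 or more libraries (11623 genes; 12831 were left out). The test was limma 3.58.1 (trend, robust) in R 4.3.3 on log2(CPM + 1), with 1 mean per group, all 8 libraries and no covariate, and Benjamini-Hochberg adjustment over all tested genes; fold changes on this scale understate those of low genes. Intervals are 95% from the moderated fit. The fit was also run on simulated counts in which 200 genes changed, fewer than were called in any comparison here. That run cannot show how often calls are false in these data. Alternatives were RLE and TMM scaling, pseudocounts of 0.1 and 5, no filter and a filter at 5 CPM, the compared groups alone, a replicate block, no robust moderation, edgeR 4.0.16 and DESeq2 1.42.0 on the recovered reads, and leaving out each library. Promoter windows were RefSeq's and exon overlaps were read from GENCODE M21. The members and the lists of other pathway genes were chosen with earlier results of these data known. Every member is described; of each other list, genes were named from the at most 2 called genes of smallest adjusted p in a comparison. A named gene of 1 list is not reported here.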

Additional observations from a re-analysis of the deposited data

How the results depend on the processing

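Of 117 values (39 genes in 3 comparisons) 80 were called, and 64 of these kept their call in all 19 alternatives tried; 16 lost it in at least 1 alternative, 5 of them outside the leaving out of libraries (Ctsz, Becn1 and Wipi1 in shERK5 against shMEK5, Map1lc3b in shERK5 and Atp6v0d1 in shMEK5 against shCTRL), and 0 called values changed sign. Of the 37 values not called, 8 were called in some alternative. Values near 0 that changed sign were those of Becn1 in shMEK5 against shCTRL (0.0095 with RLE scaling, 0.0066 with TMM, 0.0179 with edgeR, 0.0148 with DESeq2), Uvrag in shMEK5 against shCTRL (0.0092 with RLE, 0.0063 with TMM, 0.0111 with the replicate block, 0.0176 with edgeR, 0.0147 with DESeq2), Mcoln1 in shERK5 against shCTRL (-0.0044 with TMM) and Map2k5 in shERK5 against shCTRL (-0.0029 with TMM). The count of members lower in shERK5 than in shMEK5 ranged from 1 to 4 as libraries were left out, and that of all genes called in this comparison from 2864 (without shMEK5 replicate 1) to 4825; of the other pathway genes, 8 to 15 were higher in shMEK5 than in shCTRL and 5 to 12 lower in shERK5 than in shMEK5. The cause was not tested. Leaving out libraries also turned the sign of values not called, over ranges of -0.0215 to 0.014 (Becn1), -0.0292 to 0.0214 (Uvrag) and -0.0156 to 0.0643 (Gabarapl2) in shMEK5 against shCTRL, -0.0114 to 0.04 (Mcoln1) and -0.01 to 0.0255 (Map2k5) in shERK5 against shCTRL, and -0.0081 to 0.1759 (Gusb), -0.0133 to 0.2023 (Cd63), -0.0394 to 0.0005 (Ctsl) and -0.0325 to 0.0009 (Atg7) in shERK5 against shMEK5. Deviations of same-numbered shMEK5 and shERK5 libraries correlated at 0.46 and 0.52, and those of same-numbered knockdown and shCTRL libraries at -0.19 to 0.17. The deviations of the 2 shMEK5 libraries mirror each other, so whether the numbers pair the knockdown samples cannot be told. With the number as a replicate block, 17 members were higher and 11 lower in shERK5 and 3 and 19 in shMEK5 against shCTRL. In shERK5 against shMEK5 they were 26 and 3. With 2 shMEK5 libraries, leaving out either leaves 1, which is then assumed to vary like the other groups.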
